A study of Homo sapiens with 9 samples.

Results

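The AP-1, EGR and MYC early genes described here are FOS, FOSB, FOSL1, FOSL2, JUN, JUNB, JUND, EGR1, MYC and IER3. They were taken by gene symbol from a table of 64253 genes and measured by RNA sequencing of EPC2, used here as 1 line. EPC2 is labelled as a cell line from the squamous epithelium of the human esophagus. Gene positions were read from GENCODE release 29 (GRCh38). The 10 symbols stand on 15 rows of the table, because IER3 is listed under 6 identifiers, 5 of which had no read in any library and are absent from GENCODE release 29. The other 10 rows, 1 for each symbol, had enough reads to be tested, among 16366 genes tested in all.

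The 9 libraries fall into 3 groups of 3. The FOXF1 plasmid group (labelled Fox) received a plasmid for FOXF1, a forkhead transcription factor, with the lipid reagent Lipofectamine 2000. The empty vector group (labelled Lipo) received an empty vector with the same reagent, and the untreated group (labelled Ctrl) received neither. All groups grew in keratinocyte medium with bovine pituitary extract and epidermal growth factor, itself an activator of the signalling route to these genes. The time between transfection and harvest is not given in the sources used here. The design text calls the libraries biological triplicates, and the p-values measure the spread between them.

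AP-1 is a family of dimeric transcription factors in which a FOS protein pairs with a JUN protein through a leucine zipper; JUN proteins can also pair with each other. FOS, FOSB, JUN, JUNB, EGR1, MYC and IER3 are classical early response genes, transcribed within minutes of growth factor or stress signals, some of them through MAP kinases and serum response factor. FOSL1, FOSL2 and JUND are expressed more steadily in epithelial cells. EGR1 is a zinc finger factor of the same early wave, MYC pairs with MAX to drive growth and ribosome production, and IER3 encodes a small protein that modulates cell survival.

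Library totals were 34390666 to 39100049 counts with the FOXF1 plasmid, 37937873 to 39708872 with the empty vector and 37115645 to 39973289 in untreated cells. FOXF1 itself had 367, 184 and 141 reads in the libraries of its plasmid, 0, 0 and 6 in empty vector libraries and 1, 0 and 0 in untreated ones. The share of reads from the mitochondrial genome was 13.7% to 14.7%, 10.4% to 11.7% and 18.6% to 22.4% in the groups in that order, and it enters the scaling of every gene below. Of 10 squamous markers only 3 had enough reads to be tested, and TP63, the factor that defines squamous basal cells, had 0 reads in all libraries. The summed level of those markers was 106 to 111, 90.0 to 112 and 109 to 128 CPM in the same order of groups. SFN supplied nearly all of that sum, with 3718 to 4419 reads in a library. KRT6A had 23 to 67 reads, KRT5 8 to 19 and KRT15 1 to 16, while KRT14, KRT13, KRT4, DSG3 and IVL had at most 4. Most of these markers thus do not bear out the squamous label of the line. Of 9 fibroblast markers 2 were tested, PDGFRB with 1239 to 2432 reads in a library and TWIST1 with 238 to 484, and COL1A2 and LUM were at 0. The sum of the 9 was 56.6 to 65.4 CPM, 62.0 to 63.7 CPM and 42.1 to 49.6 CPM. Of 6 leukocyte and 5 endothelial markers, 1 each was tested (CD14 and PECAM1) and PTPRC, CD3E and LYZ were at 0, with sums of 10.3 to 11.6, 9.83 to 11.2 and 8.73 to 9.90 CPM for leukocytes and 0.597 to 0.933, 0.706 to 0.791 and 0.284 to 0.711 CPM for endothelium. Whether these marker levels have a part in the results below was not tested.

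Transfection with the empty vector raised 5 of the 10 genes over untreated cells: FOS about 1.97-fold, EGR1 1.70-fold, JUN 1.57-fold, MYC 1.39-fold and IER3 1.35-fold. By edgeR 0 of the 10 fell; JUND lay wholly below untreated cells in both transfected groups and was lower at an unadjusted p of 0.0207 with the empty vector, and DESeq2 called it lower there. The FOXF1 plasmid with its transfection raised the same 5 symbols over the same untreated libraries, and none of the 10 differed between the FOXF1 plasmid and the empty vector beyond the threshold. JUNB, FOSL2, FOSL1, FOSB and JUND did not pass in any of the comparisons. A gene was called at an adjusted p below 0.05 (edgeR quasi-likelihood test, Benjamini-Hochberg adjustment over all genes tested). Beside these counts stand 10.2% of all tested genes called higher, 9.37% called lower and 19.6% called in either direction with the empty vector relative to untreated cells. Relative to the same cells, the FOXF1 plasmid had 4.63% higher, 3.89% lower and 8.52% in either direction. Relative to the empty vector it had 833 genes higher and 710 lower at an unadjusted p below 0.05 by edgeR. Of all tested genes edgeR called 0.055% higher there (9 genes) and 0 lower. That split depends on the filter and on the libraries: edgeR called 96 genes, 56 of them higher, without a filter on low counts, and 326, 154 of them higher, without empty vector replicate 1, and DESeq2 called 92, 90 of them higher. With libraries scaled by their totals alone, 8 of the 10 genes were called in the FOXF1 plasmid group and 9 in the empty vector group relative to untreated cells, and 2320 of 2500 and 5721 of 6059 called genes were higher. In bulk RNA, fewer cells of a type and less RNA per cell cannot be told apart.

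**Figure D1:**
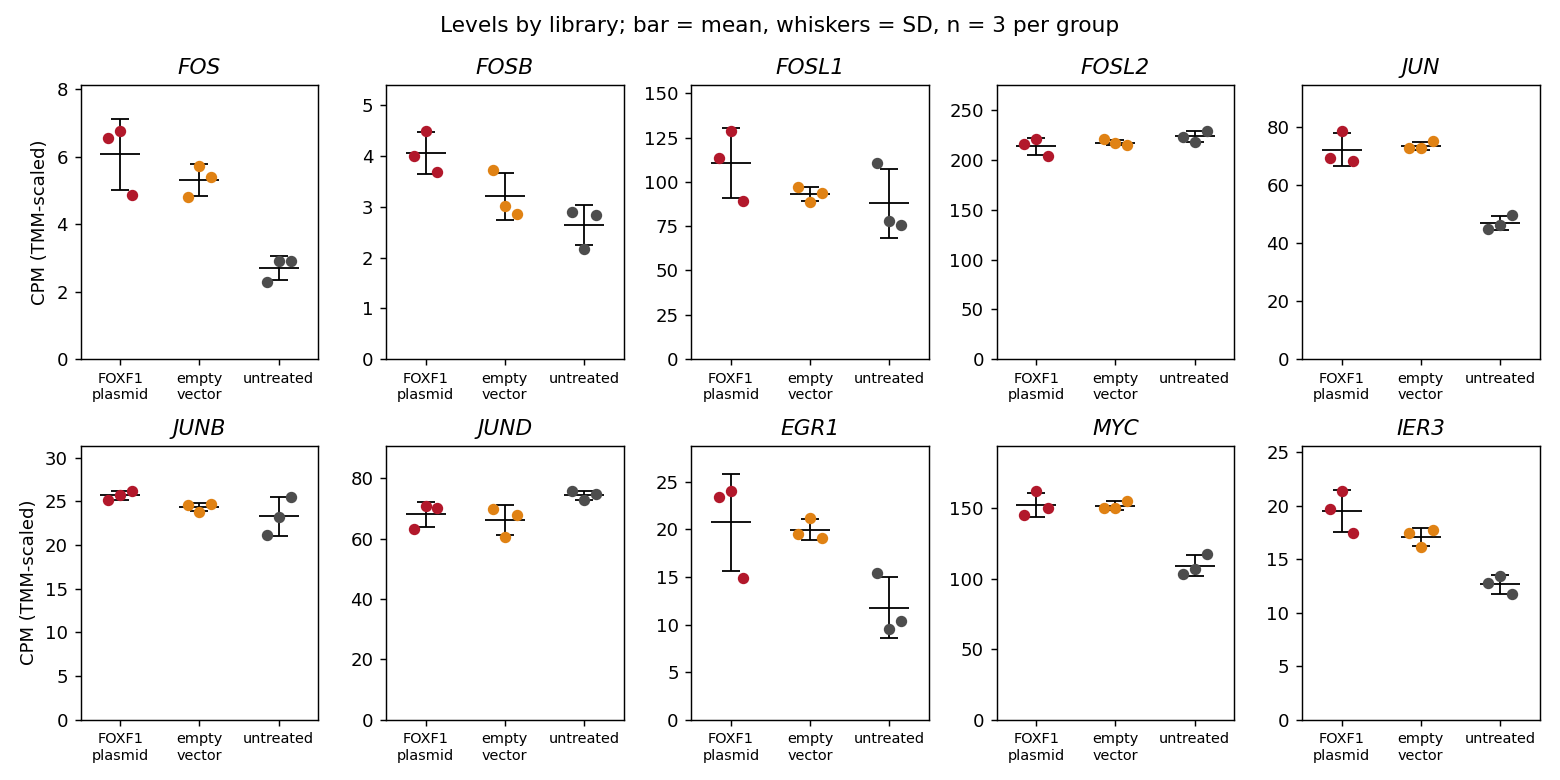
Levels of the 10 genes in each library as CPM on TMM-scaled library sizes (linear axis from 0), with points for libraries, bars for group means and whiskers for SD (n = 3). FOS, JUN, MYC and IER3 lie higher in every transfected library than in every untreated one, while FOSL2 stays between 204 and 229.6 CPM in all 9.

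Levels are given as CPM, read counts relative to the size of the library, with that size scaled by TMM, a factor that corrects for differences in composition. Per kilobase of exon, so that genes can be set side by side, the order in untreated cells began with FOSL1 at 46.7 ± 10.4, JUND at 39.9 ± 0.786 and MYC at 36.4 ± 2.45 CPM per kilobase (SD, n = 3). The library ranges of FOSL1 and JUND overlapped, as did those of JUND and MYC. Next came FOSL2 at 31.3 ± 0.771, JUN at 13.2 ± 0.723, JUNB at 12.8 ± 1.22 and IER3 at 9.34 ± 0.629 CPM per kilobase, of which JUN and JUNB overlapped. At the low end stood EGR1 at 3.75 ± 1.01, FOS at 0.830 ± 0.110 and FOSB at 0.475 ± 0.0720 CPM per kilobase, each apart from its neighbours. The classical early genes FOS and FOSB were thus the scarcest of the set, above only 32.6% and 24.0% of tested protein-coding genes, whereas FOSL1 was above 93.3% and JUND above 92.1%.

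With the empty vector MYC moved to the top of that order, at 50.5 ± 1.05 CPM per kilobase, beside FOSL1 at 49.4 ± 2.12, whose range overlapped. JUN, at 20.7 ± 0.403 CPM per kilobase, stood clear of JUNB at 13.4 ± 0.259, and JUNB overlapped IER3 at 12.6 ± 0.616. With the FOXF1 plasmid FOSL1 led at 58.6 ± 10.6 CPM per kilobase and overlapped MYC at 50.7 ± 2.89, and IER3 at 14.4 ± 1.44 overlapped JUNB at 14.1 ± 0.272. EGR1, FOS and FOSB stayed last in all groups.

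FOS (ENSG00000170345, chr14:75278774-75282230, plus strand), the founding partner of JUN in AP-1, had 264, 230 and 182 reads in FOXF1 plasmid libraries, 190, 252 and 232 in empty vector libraries and 80, 105 and 102 in untreated ones. On the CPM scale these were 6.56, 6.77 and 4.85 with the FOXF1 plasmid, 4.79, 5.72 and 5.39 with the empty vector and 2.27, 2.89 and 2.89 in untreated cells. Every transfected library was above every untreated one, and both transfected groups overlapped each other. FOS rose with the empty vector over untreated cells by a log2 fold change of 0.98 ± 0.18 (SE; adjusted p = 0.000232). It rose with the FOXF1 plasmid over untreated cells by 1.17 ± 0.18 on the log2 scale (adjusted p = 6.34e-05). Between the FOXF1 plasmid and the empty vector the log2 difference was 0.19, with a 95% interval of -0.16 to 0.54 (adjusted p = 0.782).

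FOSB (ENSG00000125740, chr19:45467995-45475179, plus strand), a close relative of FOS, had 161, 153 and 138 reads with the FOXF1 plasmid, 148, 133 and 123 with the empty vector and 102, 79 and 100 in untreated cells. Its level was 4.002, 4.50 and 3.68 CPM with the FOXF1 plasmid, against 3.73, 3.02 and 2.86 CPM with the empty vector and 2.90, 2.18 and 2.84 CPM in untreated cells. All FOXF1 plasmid libraries lay above all untreated ones, and the empty vector libraries overlapped both groups. The log2 fold change of the FOXF1 plasmid over untreated cells was 0.62 ± 0.20, and its adjusted p of 0.05002 missed the threshold. Across the 18 alternative settings and left-out libraries this p ran from 0.0117 to 0.228. It passed without empty vector replicate 1 (0.0351) or replicate 3 (0.0461). These are in neither group compared and enter through the shared spread, the gene filter, the scaling and the adjustment. Against the empty vector the FOXF1 plasmid gave a log2 fold change of 0.34 ± 0.20 (adjusted p = 0.606). The empty vector group had FOSB at 0.28 ± 0.20 relative to untreated cells (adjusted p = 0.367).

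FOSL1 (FRA-1; ENSG00000175592, chr11:65892049-65900573, minus strand) is the FOS family member most tied to epithelial migration and lacks the strong activation domain of FOS. Its level was 114, 129 and 89.4 CPM with the FOXF1 plasmid, 96.9, 88.9 and 93.6 CPM with the empty vector, and 111, 78.0 and 75.6 CPM in untreated cells. Replicate 1 of the untreated group stood above its fellows and replicate 3 of the FOXF1 plasmid group below its own, and no pair of groups separated. The log2 fold change of the FOXF1 plasmid over untreated cells was 0.33 ± 0.11 (adjusted p = 0.0524), and that over the empty vector was 0.25 ± 0.11 (adjusted p = 0.482; unadjusted p = 0.0274). Without untreated replicate 1 the log2 fold change of the FOXF1 plasmid over untreated cells became 0.51 and passed (adjusted p = 0.000413). It also passed without FOXF1 plasmid replicate 3 (0.46, adjusted p = 0.00817) and without empty vector replicate 1 (0.33, adjusted p = 0.0331), which is in neither group compared. Over the 18 alternatives the adjusted p ran from 0.000366 to 0.357. FOSL1 with the empty vector over untreated cells had 0.08 ± 0.11 (adjusted p = 0.662), which became -0.03 without untreated replicate 3 and -0.0082 without untreated replicate 2.

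FOSL2 (FRA-2; ENSG00000075426, chr2:28392448-28417312, plus strand), the most read gene of the set, was the steadiest. It had 217, 221 and 204 CPM with the FOXF1 plasmid, 221, 217 and 215 CPM with the empty vector, and 223, 219 and 229.6 CPM in untreated cells. All groups overlapped. The log2 fold change of the empty vector over untreated cells was -0.04 with a 95% interval of -0.16 to 0.08, and that of the FOXF1 plasmid over the empty vector was -0.02 with an interval of -0.15 to 0.10. Against untreated cells the FOXF1 plasmid gave -0.06, with an interval of -0.19 to 0.06. When libraries were scaled by their totals alone, the log2 fold change of the empty vector over untreated cells turned to 0.20 and passed (adjusted p = 0.00853; over all alternatives 0.00853 to 0.836), which is -0.08 relative to the median of all genes under that scaling.

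JUN (ENSG00000177606, chr1:58780788-58784327, minus strand), the member of AP-1 that is itself an AP-1 target and is activated by the JNK kinases, had 69.4, 78.7 and 68.3 CPM with the FOXF1 plasmid, 72.6, 72.6 and 75.1 CPM with the empty vector, and 44.7, 46.3 and 49.7 CPM in untreated cells. The lowest transfected library was above the highest untreated one. The empty vector raised it by 0.65 ± 0.07 on the log2 scale over untreated cells (adjusted p = 1.17e-07), and the FOXF1 plasmid by 0.62 ± 0.07 (adjusted p = 6.14e-07). JUN between the FOXF1 plasmid and the empty vector differed by -0.03, with a 95% interval of -0.17 to 0.12, which is 0.889-fold to 1.08-fold.

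JUNB (ENSG00000171223, chr19:12791496-12793315, plus strand), which is often set against JUN as a weaker activator, had 25.2, 25.7 and 26.1 CPM with the FOXF1 plasmid, 24.6, 23.8 and 24.6 CPM with the empty vector, and 21.1, 23.2 and 25.5 CPM in untreated cells. It was the only member whose FOXF1 plasmid libraries all lay above the empty vector ones, as did those of 7.33% of all tested genes (5.68% lay wholly below and 13% either way), by a log2 fold change of 0.08 ± 0.09 (adjusted p = 0.842). With scaling by library totals alone this fold change became -0.02, or 0.09 relative to the median of all genes. Against untreated cells JUNB had 0.14 ± 0.09 in the FOXF1 plasmid group (adjusted p = 0.369) and 0.07 ± 0.09 in the empty vector group (adjusted p = 0.666). The JUNB locus shares 259 exonic bases with HOOK2 on the opposite strand, and the strand setting of the counting is not given in the sources used here. Some of the reads counted for JUNB could therefore belong to HOOK2, or reads over the shared bases could be missing from its count.

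JUND (ENSG00000130522, chr19:18279760-18281622, minus strand), the JUN family member expressed at rest in many tissues, leaned the other way without passing. It had 63.1, 70.7 and 70.2 CPM with the FOXF1 plasmid, 69.8, 60.4 and 67.9 CPM with the empty vector, and 75.6, 72.8 and 74.8 CPM in untreated cells. Both transfected groups lay wholly below the untreated one, as did 12.6% of all tested genes in the FOXF1 plasmid group and 15.3% in the empty vector group. The log2 fold change of the empty vector over untreated cells was -0.17 ± 0.07 (adjusted p = 0.0853), and it passed with RLE factors (-0.20, adjusted p = 0.0491), with DESeq2 (-0.20, 0.0409) and without empty vector replicate 1 (-0.21, 0.0406), over a range of adjusted p from 0.0406 to 0.412. With scaling by library totals alone it was 0.07, or -0.22 relative to the median of all genes. The FOXF1 plasmid gave -0.13 ± 0.07 for JUND over untreated cells (adjusted p = 0.284).

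**Figure D2:**
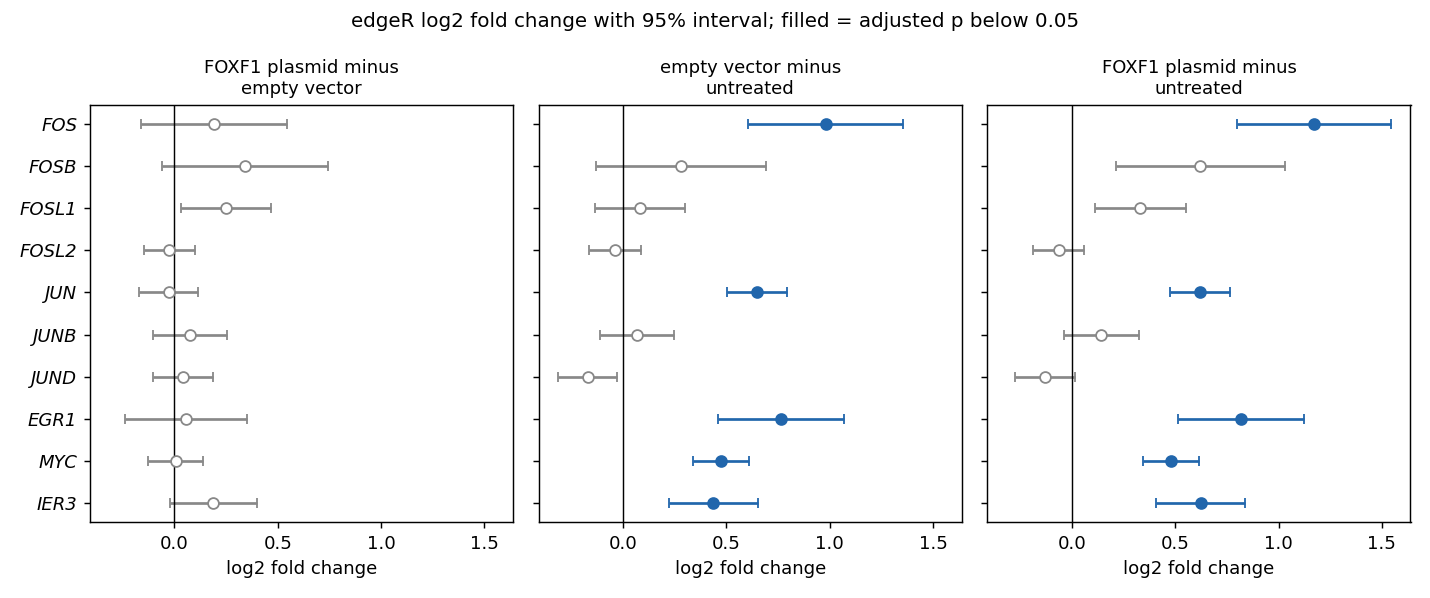
Log2 fold change (x axis) with its 95% interval for each gene and comparison, from the edgeR quasi-likelihood fit; filled points passed at an adjusted p below 0.05. FOS, JUN, EGR1, MYC and IER3 are filled in both comparisons with untreated cells, and no point is filled where both transfections are compared.

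Within the JUN family the makeup of the reads does not depend on library scaling. JUN took 44.0%, 44.9% and 41.5% of JUN, JUNB and JUND reads with the FOXF1 plasmid, 43.5%, 46.3% and 44.8% with the empty vector, and 31.6%, 32.6% and 33.1% in untreated cells. JUND took 40.01%, 40.4% and 42.6% with the FOXF1 plasmid, 41.8%, 38.5% and 40.5% with the empty vector, and 53.5%, 51.2% and 49.8% in untreated cells. JUN and JUND were thus close to equal in read number after transfection, whereas JUND took the most reads in untreated cells. Per kilobase of exon JUND kept the larger share in all groups. With the empty vector it had 50.9% against 29.9% for JUN, and with the FOXF1 plasmid 51.4% against 28.7%. The share of JUN was 12.4 percentage points higher and that of JUND 11.2 points lower with the empty vector than in untreated cells, with no overlap between libraries. The two-sided exact permutation p was 0.10 for each, the smallest that 3 against 3 libraries allow (adjusted p = 0.233 over 21 share tests). JUNB kept 14.7% to 15.96% with the FOXF1 plasmid, 14.7% to 15.2% with the empty vector and 14.9% to 17.0% in untreated cells.

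In the FOS family, FOSL2 and FOSL1 supplied nearly all reads. FOSL2 took 63.6%, 61.2% and 67.6% with the FOXF1 plasmid, 67.7%, 69.0% and 67.9% with the empty vector, and 65.8%, 72.5% and 73.8% in untreated cells. FOSL1 took 29.6% to 35.7%, 28.3% to 29.7% and 24.3% to 32.6% in the groups in that order. Per kilobase of exon FOSL1 led instead, with mean shares of 64.1%, 60.2% and 58.4% against 33.1%, 37.1% and 39.9% for FOSL2. The share of FOS was small everywhere, at 1.80% ± 0.17 with the FOXF1 plasmid, 1.66% ± 0.18 with the empty vector and 0.854% ± 0.16 in untreated cells (SD, n = 3), and it did not overlap between transfected and untreated libraries (two-sided exact permutation p = 0.10, adjusted p = 0.233). FOSB took 1.21% ± 0.036, 1.00% ± 0.127 and 0.830% ± 0.0977 in the same order. The FOXF1 plasmid libraries lay wholly above the empty vector ones in the share of FOSB and wholly below them in that of FOSL2 (two-sided exact permutation p = 0.10, adjusted p = 0.233 for each). Per kilobase the shares of FOSB overlapped between these groups, and so did those of FOSL2. Even after its rise FOS remained a minor part of the family's transcripts.

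**Figure D3:**
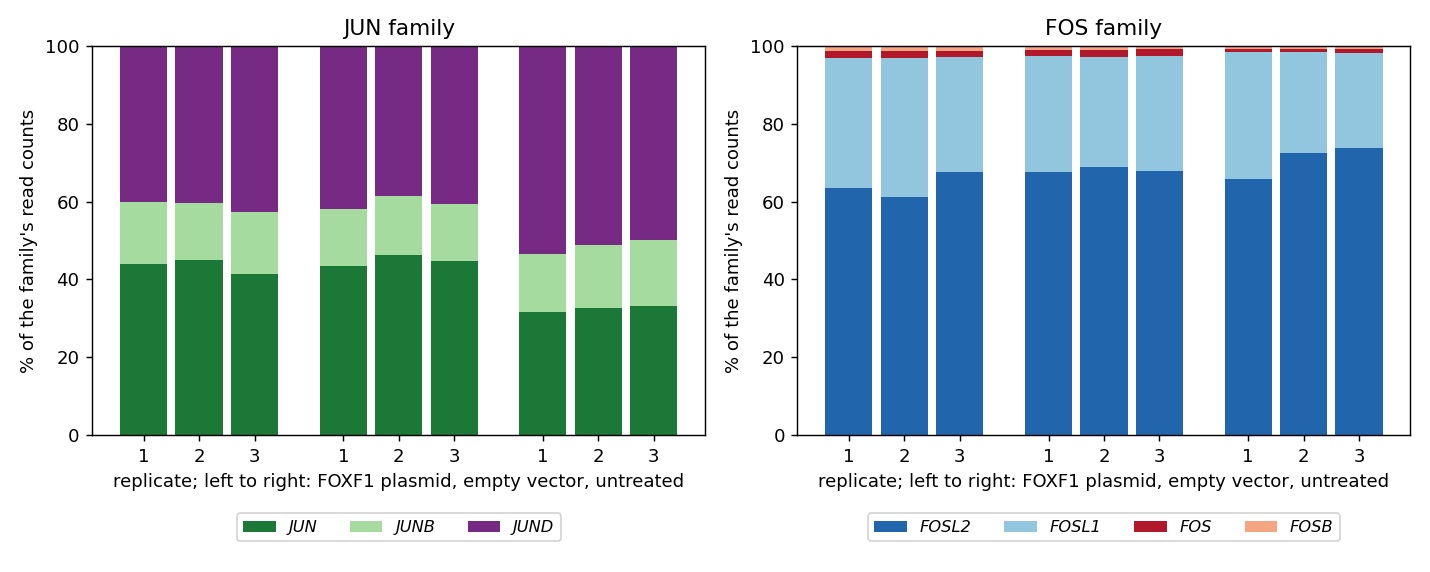
Share of read counts (y axis, percent) taken by each gene of the JUN family (left) and of the FOS family (right) in each library, with the FOXF1 plasmid, empty vector and untreated libraries from left to right. In read counts, which are not scaled by exon length, JUN and JUND are near equal in the transfected libraries, and JUND takes 49.8% to 53.5% in untreated ones.

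EGR1 (ENSG00000120738, chr5:138465490-138469315, plus strand) had 23.4, 24.0 and 14.9 CPM with the FOXF1 plasmid, 19.6, 21.2 and 19.1 CPM with the empty vector, and 15.4, 9.54 and 10.4 CPM in untreated cells. The empty vector libraries were all above the untreated ones, but FOXF1 plasmid replicate 3 lay below untreated replicate 1. The empty vector raised EGR1 by 0.76 ± 0.15 on the log2 scale over untreated cells (adjusted p = 0.000415), and the FOXF1 plasmid raised it by 0.82 ± 0.15 (adjusted p = 0.000497). Between the FOXF1 plasmid and the empty vector the difference was 0.06 with a 95% interval of -0.24 to 0.35.

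The stretch around the start of transcription is shown for EGR1, for FOS, which rose beside it, and for JUND, which did not pass, so that the letters can be compared. RefSeq sequences of GRCh38.p14, from 250 bases before the start to 50 after it, matched 7 of the 10 symbols. They lie at chr5:138465229-138465528 on the plus strand for EGR1, chr14:75278578-75278877 on the plus strand for FOS and chr19:18281573-18281872 on the minus strand for JUND. Capitals mark matches to any of 6 motifs searched on both strands: the CArG box bound by serum response factor, the cyclic AMP response element TGACGTCA, the AP-1 site TGANTCA, the TATA box TATAAA, the E-box CACGTG bound by MYC and MAX, and the EGR site GCGNGGGCG.
EGR1: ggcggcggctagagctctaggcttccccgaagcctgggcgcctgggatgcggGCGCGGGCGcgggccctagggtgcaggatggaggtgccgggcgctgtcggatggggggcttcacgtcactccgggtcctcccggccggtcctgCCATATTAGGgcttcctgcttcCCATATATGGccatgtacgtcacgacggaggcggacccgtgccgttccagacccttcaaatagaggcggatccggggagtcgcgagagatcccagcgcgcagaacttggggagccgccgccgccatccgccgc
FOS: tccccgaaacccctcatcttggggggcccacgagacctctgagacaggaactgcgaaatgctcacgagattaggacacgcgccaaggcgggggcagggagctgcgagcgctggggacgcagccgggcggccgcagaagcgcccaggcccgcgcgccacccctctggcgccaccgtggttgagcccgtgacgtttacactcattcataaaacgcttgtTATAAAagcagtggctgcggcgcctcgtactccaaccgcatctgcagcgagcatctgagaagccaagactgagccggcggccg
JUND: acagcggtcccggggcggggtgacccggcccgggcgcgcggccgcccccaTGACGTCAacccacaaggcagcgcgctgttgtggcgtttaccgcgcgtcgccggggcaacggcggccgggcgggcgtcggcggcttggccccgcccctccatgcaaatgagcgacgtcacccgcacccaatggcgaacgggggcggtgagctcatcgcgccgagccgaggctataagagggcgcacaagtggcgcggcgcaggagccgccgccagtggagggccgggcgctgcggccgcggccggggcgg
EGR1 held 2 CArG boxes, beginning 105 and 83 bases before the start, and 1 EGR site. A CArG box is present in 1.29% of the 35116 promoters in that table and an EGR site in 9.43%. The FOS window held a TATA box (11.5% of all promoters) and the JUND window a cyclic AMP response element (1.85%). No 2 of these matches overlapped. Of the other matched members, FOSB and JUNB held a TATA box and FOSL2 an AP-1 site (7.71% of all promoters). The JUN window held none of the 6, and no matched window held an E-box (7.26%). MYC, FOSL1 and IER3 had no matched sequence and were not searched. A match is a run of letters and says nothing about occupancy in these cells. A missing match covers only this window and these exact patterns.

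MYC (ENSG00000136997, chr8:127735434-127741434, plus strand) had 145, 162 and 149.9 CPM with the FOXF1 plasmid, 149.7, 149.9 and 155 CPM with the empty vector, and 104, 107 and 117 CPM in untreated cells. The transfected libraries were all above the untreated ones and overlapped each other. Over untreated cells MYC rose by 0.48 ± 0.07 on the log2 scale in the FOXF1 plasmid group (adjusted p = 9.67e-06) and by 0.47 ± 0.07 in the empty vector group (adjusted p = 4.95e-06). The FOXF1 plasmid and the empty vector differed in MYC by 0.01, with a 95% interval of -0.13 to 0.14, or 0.915-fold to 1.10-fold.

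IER3 (ENSG00000137331, chr6:30743199-30744554, minus strand) had 19.8, 21.4 and 17.5 CPM with the FOXF1 plasmid, 17.4, 16.2 and 17.8 CPM with the empty vector, and 12.8, 13.4 and 11.7 CPM in untreated cells. Untreated cells were lowest in every library, and FOXF1 plasmid replicate 3 lay among the empty vector libraries. Over untreated cells IER3 rose by 0.62 ± 0.11 on the log2 scale in the FOXF1 plasmid group (adjusted p = 0.000176) and by 0.44 ± 0.11 in the empty vector group (adjusted p = 0.00327). The difference between the FOXF1 plasmid and the empty vector was 0.19, with an interval of -0.02 to 0.40 (adjusted p = 0.579). Reads of IER3 and of its antisense neighbour IER3-AS1, which share 359 exonic bases, cannot be told apart without strand. IER3-AS1 had at most 12 reads in a library, but reads over the shared bases could be missing from both counts.

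Over the 10 genes the median log2 fold change of the FOXF1 plasmid relative to the empty vector was 0.07, where all tested genes had -0.01. Relative to untreated cells it was 0.55 for the FOXF1 plasmid, beside 0.02 for all genes, and 0.36 for the empty vector, beside 0.04. These last comparisons share the untreated libraries. Of the 10 genes, 5 lay wholly higher with the empty vector than in untreated cells and 1 wholly lower, where 32.6% of all tested genes were apart in either direction. The FOXF1 plasmid libraries had 5 wholly higher than untreated ones and 1 wholly lower, with 26.6% of all genes apart. Of the 10 genes, set between both transfections, 0 were called by edgeR, 1 (FOSL1) at an unadjusted p below 0.05, and 0 by limma-voom or by DESeq2, which gave an adjusted p for only 5 of them. At that unadjusted p edgeR had 833 of all 16366 tested genes higher and 710 lower. The 5 called genes kept their call against untreated cells, in both comparisons, in each of the 18 alternative settings and left-out libraries.

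Replicates of a group differed unequally from gene to gene. The spread within groups, as the SD of log2 CPM, was 0.31 for EGR1 and 0.24 for FOSL1, whereas genes of a like level had medians of 0.13 and 0.08; 99.5% and 99.8% of those genes had a smaller spread. FOSL2 was at the other end with 0.04, below which lay 3.83% of genes of its level. EGR1 was 0.42 above its group mean in untreated replicate 1 and 0.45 below it in FOXF1 plasmid replicate 3, and FOSL1 was 0.35 above and 0.29 below in the same libraries. FOS, in contrast, was 0.23 below its group mean in untreated replicate 1, and 0.30 below in FOXF1 plasmid replicate 3. JUN, MYC and JUNB stayed within 0.14 of their group means in every library.

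**Figure D4:**
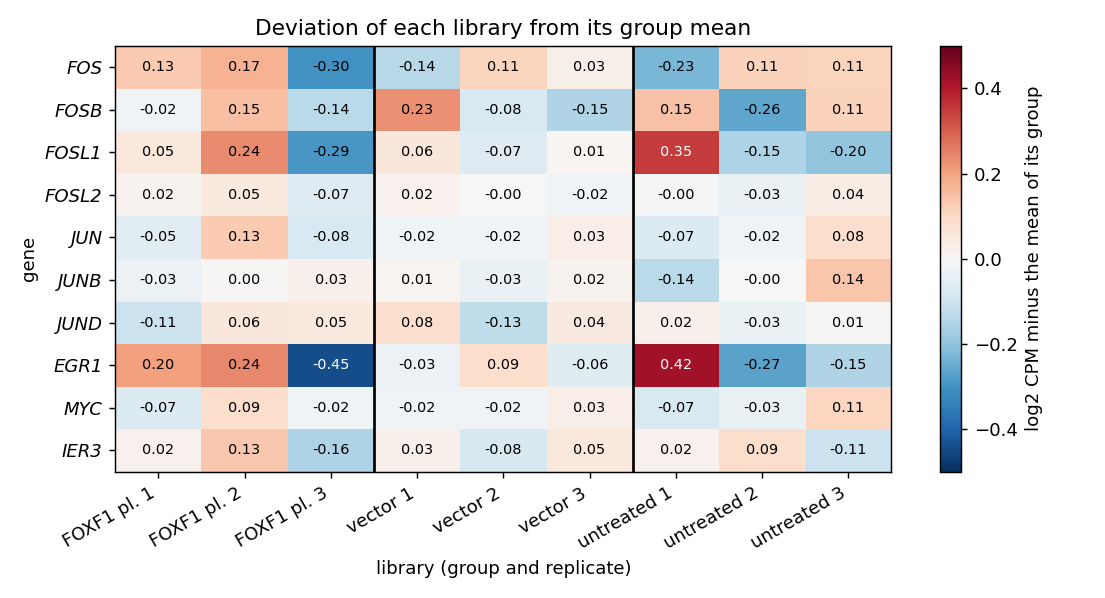
Deviation of each library (columns) from the mean of its group, in log2 CPM, for each gene (rows); red is above and blue below the group mean. EGR1 and FOSL1 are highest in untreated replicate 1 and lowest in FOXF1 plasmid replicate 3, while the empty vector libraries differ little for either.

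The likeness of 2 genes was taken as the root mean square difference of their centred log2 CPM profiles over the 9 libraries. Within the set JUN and MYC were nearest to each other, at 0.08, and IER3 was nearest to MYC at 0.13. FOS and EGR1 had no close fellow, their nearest being JUN at 0.26 and IER3 at 0.27. Other tested genes were searched too, with pseudogenes and genes under clone-style names left out. Among these, JUN was most like CALR (calreticulin, a chaperone of the endoplasmic reticulum) and SLC2A1 (a glucose transporter), at 0.06 and 0.07. FOS was most like EGLN3 (an oxygen-sensing prolyl hydroxylase) at 0.16 and DDIT3 (the stress factor CHOP) at 0.17. For EGR1 they were ATG9B and PTCHD2 (0.13 and 0.14), for MYC the protease inhibitor SPINT2 and the collagen COL5A3 (0.04 and 0.05), and for IER3 the transcriptional repressor BHLHE40 and TCF15 (0.06 and 0.09).

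Related genes were grouped into 7 lists by role, of which 198 genes were tested. Between both transfections 0 of these 198 were called by edgeR, with 22 at an unadjusted p below 0.05 (15 higher and 7 lower). Beside these stand 833 higher and 710 lower at that unadjusted p among all 16366 tested genes. There limma-voom called 0 and DESeq2 called 4 as higher with the FOXF1 plasmid: 1 MYC target, 1 gene of the EGR1 list and 2 of the MAPK list. DESeq2 gave an adjusted p for only 71 of the 198 in that comparison. Without empty vector replicate 1 edgeR called 5 list entries, and without a filter on low counts 1 MYC target and 1 gene of the EGR1 list. Relative to untreated cells, 28 of the 198 rose and 11 fell with the FOXF1 plasmid, and 42 rose and 26 fell with the empty vector. With scaling by library totals alone the split was 55 and 4 with the FOXF1 plasmid, and 104 and 9 with the empty vector. Under that scaling 2500 of all 16366 tested genes were called with the FOXF1 plasmid (2320 higher) and 6059 with the empty vector (5721 higher). By list, the empty vector then had 24 higher and 0 lower among early response genes, 15 and 0 among leucine zipper partners, 10 and 0 in the MYC network, 21 and 3 among MYC targets, 11 and 3 among AP-1 targets, 8 and 1 in the EGR1 list and 17 and 2 in the MAPK list. The list counts below, apart from those with library totals alone, are read beside the shares of all tested genes. These are 4.63% higher and 3.89% lower with the FOXF1 plasmid and 10.2% higher and 9.37% lower with the empty vector.

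Other early response genes rose in 11 of 38 tested cases with the empty vector over untreated cells and fell in 1, with a median log2 fold change of 0.17. MAFF, a small MAF protein, rose to 12.6 ± 0.849 CPM, against 7.08 ± 1.89 CPM in untreated cells. ATF3, a stress-induced partner of JUN, rose to 6.45 ± 0.543 CPM against 3.69 ± 0.518 in untreated cells (log2 fold change 0.81 ± 0.18, adjusted p = 0.00186), and RHOB, a small GTPase, by 0.62 ± 0.08. ID3, an inhibitor of helix-loop-helix factors, fell by 0.39 (adjusted p = 6.83e-05). With the FOXF1 plasmid over untreated cells 6 rose and 1 fell, among them MAFF by 0.77, ID1 by 0.59 and RHOB by 0.53, while ID3 fell by 0.23.

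Other leucine zipper factors that can pair with AP-1 proteins had the highest list median, 0.40, with the empty vector over untreated cells, where 12 of 27 rose and 2 fell. DDIT3 rose by 0.86 ± 0.14 and JDP2, a repressor that pairs with JUN, by 0.77 ± 0.12 to 31.9 ± 2.75 CPM, against 18.7 ± 2.58 CPM in untreated cells (adjusted p = 5.31e-05 and 1.58e-05). ATF5 and ATF7 fell by 0.44 and 0.29. MAFF belongs to this list as well. With the FOXF1 plasmid over untreated cells 9 rose and 0 fell by edgeR (2 lower at an unadjusted p below 0.05, and 1 called lower by DESeq2), with DDIT3 at 0.86, MAFF at 0.77 and JDP2 at 0.62. At that unadjusted p edgeR had 1652 of all 16366 tested genes lower.

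In the MYC network 1 of 21 genes rose with the empty vector over untreated cells and 2 fell: MXI1, an antagonist that competes for MAX, rose to 16.4 ± 0.457 CPM against 8.54 ± 1.52 CPM in untreated cells (log2 fold change 0.94 ± 0.12, adjusted p = 2.10e-06), and RUVBL2 and HUWE1 fell by 0.29 and 0.21. With library totals alone HUWE1 had the opposite sign, at 0.040, but was at -0.25 relative to the median of all genes. Over untreated cells edgeR also called MXI1 higher with the FOXF1 plasmid, at 0.75 ± 0.12, and 0 network genes lower. At an unadjusted p below 0.05, 3 network genes were lower, as were 1652 of all 16366 tested genes. DESeq2 and limma-voom each called 1 lower, as did edgeR with RLE factors or with TMM factors computed without mitochondrial genes. In that comparison 2 genes were called without a filter on low counts, with the replicate block or with only the compared groups fitted. With library totals alone 4 were called, as were 2500 of all 16366 tested genes. Without untreated replicate 3, 3 genes were called, and 2 when replicate 1 of either transfected group was left out. MAX, the obligate partner of MYC, had -0.04 ± 0.07 with the empty vector over untreated cells. Of 41 known MYC targets 6 rose and 10 fell with the empty vector over untreated cells (all genes 10.2% and 9.37%), with a median of -0.06. With library totals alone 21 rose and 3 fell, where 6059 of all 16366 tested genes were called, 5721 of them higher. Without untreated replicate 1, 10 were called in all. TFRC (transferrin receptor), SLC7A5 (an amino acid transporter) and DDX18 rose by 0.93, 0.48 and 0.46, while SRM (spermidine synthase), BOP1 (ribosome assembly) and CAD (pyrimidine synthesis) fell by 0.78, 0.57 and 0.48. With the FOXF1 plasmid over untreated cells 3 rose (TFRC by 0.81, SLC7A5 by 0.50, APEX1 by 0.20 with an adjusted p of 0.0481, which was 0.0927 with RLE factors and 0.0588 with TMM factors computed without mitochondrial genes) and 5 fell, SRM by 0.45, BOP1 by 0.39 and CAD by 0.37.

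Known AP-1 targets were tested in 22 of 36 cases, the others having too few reads. With the empty vector 8 rose and 4 fell over untreated cells. LAMB3 (a laminin chain) rose by 0.98 ± 0.11, MMP9 (a matrix protease) by 0.81 ± 0.24 and VEGFA by 0.80 ± 0.07, whereas TIMP1 (a protease inhibitor) fell by 0.83, HMGA1 by 0.49 and KRT18 by 0.41. With the FOXF1 plasmid over untreated cells 8 rose and 2 fell, with MMP9 at 0.98, LAMB3 at 0.88, VEGFA at 0.70, TIMP1 at -0.59 and HMGA1 at -0.29.

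In the list of EGR1 regulators and targets 1 of 18 rose and 3 fell with the empty vector over untreated cells. NAB2, a corepressor that is induced by EGR1 and binds it, rose to 27.7 ± 1.153 CPM against 22.6 ± 2.93 CPM in untreated cells (log2 fold change 0.29 ± 0.09, adjusted p = 0.0232), and MT2A, TGFB1 and CCND1 fell by 0.43, 0.32 and 0.24. For CCND1 the libraries of both groups overlapped. Its adjusted p by edgeR was 0.0494, and 0.0522 with TMM factors computed without mitochondrial genes. Both edgeR with those factors and limma-voom called 2 genes of the list lower. With library totals alone CCND1 had the opposite sign, at 0.0069, but was at -0.28 relative to the median of all genes. Without empty vector replicate 2 only 2 genes of the list were called. With the FOXF1 plasmid over untreated cells 0 of 18 passed by edgeR, DESeq2 (which gave an adjusted p for 16 of them) or limma-voom. With library totals alone 3 passed by edgeR, as did 2500 of all 16366 tested genes. At an unadjusted p below 0.05 edgeR had 4 of the 18 (2 higher and 2 lower), beside 1938 higher and 1652 lower among all 16366 tested genes. In that comparison 1 passed by edgeR without a filter on low counts, with a filter of 1 CPM in 3 libraries, with the replicate block, with only the compared groups fitted, or without untreated replicate 3, empty vector replicate 1 or 3, or FOXF1 plasmid replicate 3. Of 35 genes of the MAP kinase and serum response factor inputs, 4 rose and 5 fell with the empty vector over untreated cells, near the 10.2% and 9.37% of all tested genes. NRAS, MAP2K1 and ELK3 rose by 0.67, 0.57 and 0.56, and HRAS, MAP2K2 and RPS6KA4 fell by 0.53, 0.45 and 0.42. The kinase pair MAP2K1 and MAP2K2, which act at the same step before ERK, thus moved in opposite directions. The directions were the same with the FOXF1 plasmid over untreated cells, at 0.41 for MAP2K1 and -0.23 for MAP2K2, where 2 genes of the list rose and 3 fell. Of these 5 calls, 1 was left in number without untreated replicate 1, 2 without FOXF1 plasmid replicate 3 and 3 without its replicate 1 or 2.

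**Figure D5:**
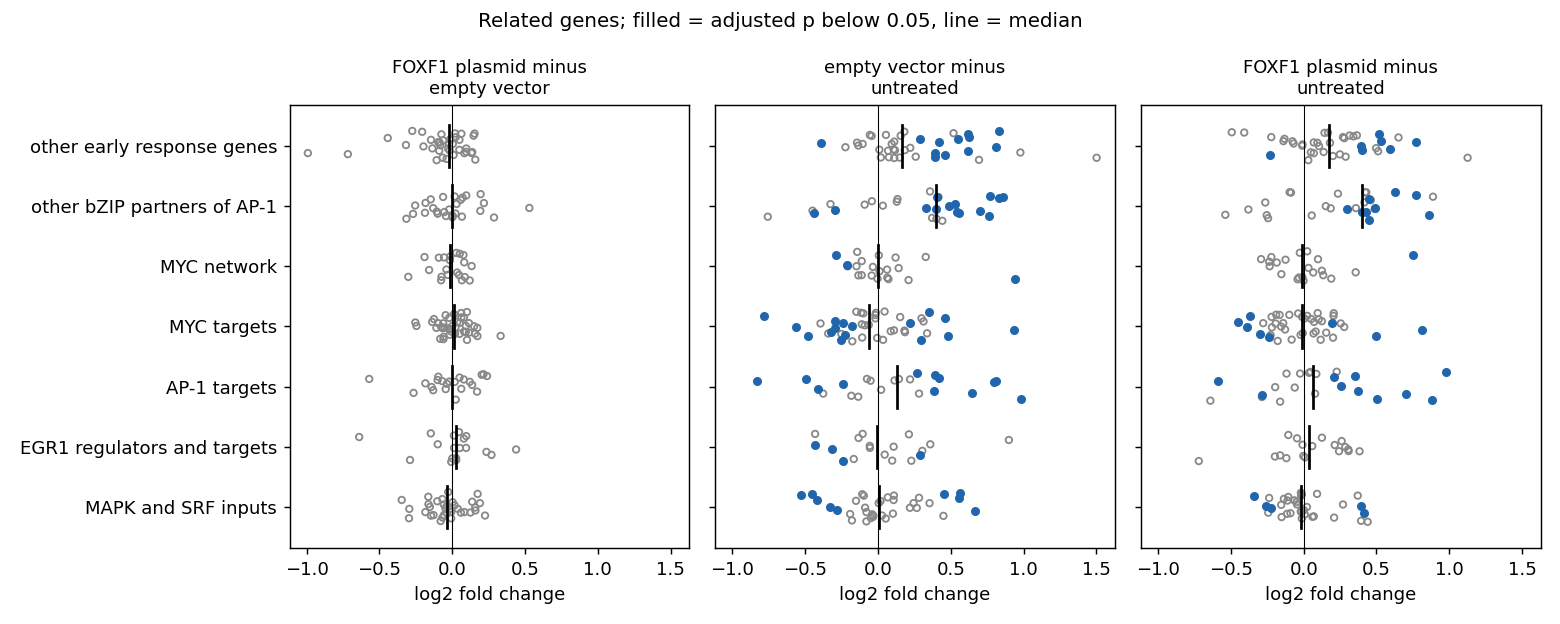
Log2 fold change (x axis) of every tested gene in 7 lists of related genes (rows) for each comparison; filled points passed at an adjusted p below 0.05 and black lines are list medians. Between both transfections the list medians lie from -0.04 to 0.03, and the other bZIP partners of AP-1 have a median of 0.40 in both comparisons with untreated cells.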

How the data were processed

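The authors deposited raw read counts by Ensembl gene and library, per the file headers. RNA was made into libraries with a stranded poly(A) kit, per the labels' protocols. The submitters' processing notes name bcl2fastq, STAR 2.5.2b, HTSeq and GRCh38. No source used here gives the annotation release or the counting's strand setting.

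The counts entered edgeR 4.0.16 (R 4.3.3): genes passing filterByExpr at a minimum count of 10, TMM scaling, and a quasi-likelihood model with 1 mean per group over all 9 libraries (biological coefficient of variation 0.101). Each SE is |log2 fold change| over the root of F. Profiles are log2 CPM with a prior count of 2. Replicate pairs differed beyond sampling noise (chi-square over degrees of freedom 8.60 to 23.2). The procedure was tested on simulated data.

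Genes and lists were chosen with earlier results of these data known. The text names, per list and comparison with untreated cells, up to 3 highest and 3 lowest called genes averaging log2 CPM 1 or more, and for each called member the 2 nearest profiles; MAX was chosen after its values were seen. Alternatives used DESeq2 1.42.0, limma 3.58.1, other scalings and filters, a replicate block and left-out libraries. A count of 0 allows up to 0.0751 to 0.0872 CPM (3 counts), for counting error only.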

Additional observations from a re-analysis of the deposited data

How the results depend on the processing

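FOS, JUN, EGR1, MYC and IER3 stayed called over untreated cells in all 18 alternatives, with log2 fold changes for the empty vector of 0.86 to 1.23, 0.60 to 0.89, 0.62 to 1.02, 0.43 to 0.72 and 0.37 to 0.68. In the comparisons with untreated cells the choice with most effect on the number of calls was scaling by library totals alone, under which the median of all genes was 0.16 for the FOXF1 plasmid and 0.29 for the empty vector over untreated cells, beside 0.02 and 0.04 with TMM. Then 8 of the 10 genes were called for the FOXF1 plasmid and 9 for the empty vector, among 2500 and 6059 genes (2320 and 5721 of them higher). Log2 fold changes over untreated cells became 0.77 (FOSB), 0.48 (FOSL1), 0.082 (FOSL2), 0.29 (JUNB) and 0.017 (JUND) for the FOXF1 plasmid and 0.52, 0.33, 0.20, 0.31 and 0.072 for the empty vector. Over the empty vector, those of the FOXF1 plasmid became -0.021 (JUNB), -0.055 (JUND), -0.045 (EGR1) and -0.094 (MYC), where the median of all genes was -0.11. Relative to that median they were 0.091, 0.057, 0.067 and 0.019. The fold change of MYC in that comparison, near 0 throughout, was also -0.0053 with TMM factors computed without mitochondrial genes, -0.010 without a filter on low counts and -0.0058 with only the compared groups fitted.

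Over untreated cells, FOSB passed for the FOXF1 plasmid with DESeq2 (0.61), with a filter of 1 CPM in 3 libraries (0.62) and with only the compared groups (0.62). FOSL1 passed there without a filter (0.31) and with only the compared groups (0.33). JUND passed as lower for the empty vector with RLE factors and DESeq2 (-0.20 in both). The causes were not tested. Genes called for the FOXF1 plasmid over the empty vector numbered 9, but 16 with RLE factors, 92 with DESeq2 (90 higher) and 96 without a filter (56 higher); DESeq2 gave no adjusted p there for FOS, FOSB, JUNB, EGR1 and IER3. The share of JUNB in its family for the FOXF1 plasmid minus untreated cells was -0.56 points in counts and 0.54 points per kilobase of exon.

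Replicate numbers share no stated batch, and same-numbered libraries of different groups had deviations whose correlations were -0.0904 to 0.0837. With the replicate block 16 genes were called for the FOXF1 plasmid over the empty vector, and FOSL1 passed over untreated cells (0.34, adjusted p = 0.0142).

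With a library left out, all genes called ranged from 1 (without FOXF1 plasmid replicate 2) to 326 (154 higher; without empty vector replicate 1) for the FOXF1 plasmid over the empty vector, from 2092 to 3897 for the empty vector and from 817 to 1729 for the FOXF1 plasmid over untreated cells. Log2 fold changes ranged, for the FOXF1 plasmid over the empty vector, from -0.063 to 0.25 (EGR1), -0.051 to 0.0073 (FOSL2), -0.097 to 0.011 (JUN), -0.019 to 0.093 (JUND) and -0.043 to 0.040 (MYC). For the empty vector over untreated cells they ranged from -0.026 to 0.27 (FOSL1), -0.011 to 0.13 (JUNB) and -0.21 to -0.11 (JUND), and for the FOXF1 plasmid over untreated cells from 0.49 to 0.69 (FOSB) and 0.19 to 0.51 (FOSL1). The share of FOSL1 ranged from -0.077 to 4.08 points (empty vector minus untreated) and that of JUND from -0.15 to 1.5 points (FOXF1 plasmid minus empty vector). Depth limits FOS and FOSB most, with 79 to 264 reads per library.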

Other observations

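The library-to-library pattern of EGR1 and FOSL1 within groups was set beside that of other tested genes, after it had been seen. Pseudogenes and genes under clone-style names were left out. The genes whose deviations from their group means were nearest to those of FOSL1 were HOXA11, MAP1A and PTCHD2, with root mean square differences of 0.0511, 0.0561 and 0.0590 in log2 CPM over the 9 libraries. HOXA11 was 0.314 below its group mean in FOXF1 plasmid replicate 3, and 0.273 above it in untreated replicate 1. For EGR1 the nearest were CCNI2, DARS-AS1 and PTPRN2, with differences of 0.0722, 0.0785 and 0.0853. PTPRN2 was 0.368 below its group mean in FOXF1 plasmid replicate 3 and 0.427 above it in untreated replicate 1. None of these genes is in the lists used here.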
